A study of Oryctolagus cuniculus with 16 samples.

Results

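VCAM1, CD80, CD226 and LY96 were followed over sham surgery, day 1 and day 7 in rabbit vein grafts. The probes of these 4 genes were found by looking up the transcript accession that the raw array files give for each probe in a table of rabbit gene symbols, which gave 14 of 43603 probes and 4 of 2127 genes with a symbol on the array. VCAM1 had 5 probes, LY96 had 5, CD80 had 2 and CD226 had 2. Each probe was a single spot, and all 14 were well above background on all 16 arrays, with no spot saturated and none called non-uniform or outlying by the scanner software.

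Leukocytes enter an injured vessel wall by rolling on selectins and then binding firmly to adhesion molecules of the immunoglobulin family. VCAM1 is such a molecule, displayed by activated endothelium and also by smooth muscle cells, and it binds the integrin VLA-4 on monocytes and lymphocytes. Antigen-presenting cells carry CD80, which with its relative CD86 binds CD28 or CTLA4 on T cells, while CD226 is a receptor of T cells, natural killer cells and platelets that binds nectin family ligands. LY96, also called MD-2, is the secreted partner of the receptor TLR4 and holds the lipid part of lipopolysaccharide.

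The arrays were Agilent rabbit one-colour arrays hybridized with Cy3-labelled total RNA of vein tissue from male animals. Grafts removed 1 day after surgery gave 6 arrays, grafts removed 7 days after surgery gave 6 arrays, and the sham surgery group, which is labelled as the control, gave 4. The strain and age of the rabbits are not given in the sources used here, and neither is what the sham operation did to the vein. Arrays 1, 3 and 5 of each graft group differed from each other by less than the spots of one probe on a single array, as did arrays 2, 4 and 6, and sham arrays 3 and 4 also did. Such arrays were averaged, which left 2 day 1 samples, 2 day 7 samples and 3 sham samples, and the p-values measure the spread between these samples, since nothing says how many animals they came from. Sham sample 3, the mean of sham arrays 3 and 4, stood apart from sham samples 1 and 2. The raw signals differed in brightness between groups: their 75th percentile lay between 863 and 1023 intensity units on day 1, between 2488 and 2831 on day 7 and between 1329 and 2026 in the sham group. All sham arrays came from a scan of their own, so that scan and sham surgery cannot be told apart, while each of the 3 graft scans held day 1 and day 7 arrays. In each graft scan, the day 1 arrays held array positions 1 and 2 and the day 7 arrays positions 3 and 4. Day and array position therefore cannot be told apart, and each of the 2 samples of a day was also always at 1 position.

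VCAM1 was lower than sham on day 1 and higher than sham on day 7. On the normalized log2 scale, its brightest probe, A_04_P002586, measured 13.75, 13.75 and 14.12 in the sham samples, 13.10 and 13.17 on day 1, and 15.08 and 15.23 on day 7. The 3 groups did not overlap, and day 1 lay below all sham samples while day 7 lay above them. Day 7 grafts were 2.44-fold above sham (log2 fold change 1.29 ± 0.15 (SE), limma adjusted p = 0.000577) and 4.06-fold above day 1 (2.02 ± 0.16, limma adjusted p = 0.000131). Day 1 grafts were 1.66-fold below sham (log2 fold change -0.74 ± 0.15, limma adjusted p = 0.00431), which passed the limit on the adjusted p of 0.05 but not the limit of 1 on the log2 fold change that a call also required. In bulk tissue, fewer cells of a type and less RNA per cell cannot be told apart, for VCAM1 and for the other genes below.

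The 5 VCAM1 probes went the same way but not by the same amount. Day 7 was above day 1 by a log2 fold change of 2.02 and 2.30 for A_04_P002586 and A_04_P002587, and by 3.57, 3.49 and 3.89 for A_04_P004401, A_04_P004402 and A_04_P004403. All 5 probes were called higher on day 7 than in sham, with log2 fold changes from 1.29 to 2.37 (limma adjusted p from 3.18e-05 to 0.00127). On day 1, the 3 probes of the A_04_P0044 series were called lower than sham, with log2 fold changes from -1.74 to -1.20, while A_04_P002586 at -0.74 and A_04_P002587 at -0.79 missed the limit on the fold change, as A_04_P004401 did with normexp background correction (-0.96). Probe A_04_P004403 shows the wider range: it measured 11.11, 11.03 and 11.36 in the sham samples, 9.41 and 9.44 on day 1, and 13.18 and 13.46 on day 7. No test was made between probes of a gene. Within the graft scans, the step of the brightest probe from day 1 to day 7 was 2.03 and 2.04 in 2 of the 3 and was called in all 3. Each graft scan held arrays of the same samples, so that values within the scans are repeated measurements and not independent results.

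CD80 was higher on day 1 and higher again on day 7. Its brightest probe, A_04_P003302, measured 5.27, 5.75 and 5.49 in the sham samples, 8.54 and 8.69 on day 1, and 10.13 and 10.07 on day 7. All graft samples lay above all sham samples, and the day 7 samples lay above those of day 1. Day 1 grafts were 8.67-fold above sham (log2 fold change 3.12 ± 0.16, limma adjusted p = 1.21e-05), and day 7 grafts were 24.2-fold above sham (4.60 ± 0.16, limma adjusted p = 7.37e-06). From day 1 to day 7, the level rose 2.79-fold (1.48 ± 0.17, limma adjusted p = 0.000574). The other probe, A_04_P003301, gave log2 fold changes of 2.97 on day 1 and 4.42 on day 7 against sham and 1.44 between the days, and was called higher in all 3 comparisons. The raw signal of A_04_P003302 was low in sham, with a median over arrays of 43.7 intensity units there, 248 on day 1 and 1788 on day 7, while the lowest raw signal called well above background was between 6.92 and 16.7 units, depending on the array. With normexp background correction, which adds an offset to the signals, the log2 fold changes were 1.70 on day 1 and 2.92 on day 7 against sham, and both were still called. Within the 3 graft scans, which held arrays of the same samples, day 7 against day 1 gave 1.48, 1.51 and 1.46.

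CD226 was higher than sham on both days. Its brightest probe, A_04_P072912, measured 6.58, 6.63 and 6.62 in the sham samples, 8.04 and 8.05 on day 1, and 8.39 and 8.43 on day 7. The groups did not overlap, and the spread within each group was small. Day 1 grafts were 2.70-fold above sham (log2 fold change 1.43 ± 0.09, limma adjusted p = 2.61e-05) and day 7 grafts 3.47-fold (1.80 ± 0.09, limma adjusted p = 2.31e-05). The step from day 1 to day 7 was 1.29-fold (0.37 ± 0.10, limma adjusted p = 0.0176), below the limit on the fold change. This step was 0.37, 0.38 and 0.34 within the 3 graft scans, which held arrays of the same samples. The dimmer probe, A_04_P072913, measured 5.11, 5.16 and 5.43 in the sham samples, 5.96 and 5.92 on day 1, and 6.89 and 6.96 on day 7. This probe was called higher on day 7 than in sham (1.69 ± 0.13, limma adjusted p = 0.000109), but its day 1 difference of 0.71 (limma adjusted p = 0.00285) and its step of 0.98 from day 1 to day 7 (limma adjusted p = 0.00139) missed the limit on the fold change. With normexp background correction, the brightest probe's log2 fold change against sham was 0.92 on day 1, no longer called, and 1.12 on day 7, still called, and that of A_04_P072913 on day 7 was 0.71, no longer called. With 75th percentile scaling, the step of A_04_P072912 between the days was 0.13 (limma adjusted p = 0.355), and A_04_P072913 was called on day 1 (1.30). The step of A_04_P072913 was called within 1 of the 3 graft scans (1.03) and without day 7 sample 1 (1.01).

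LY96 was highest on day 1 and lay between sham and day 1 on day 7. Its brightest probe, A_04_P000316, measured 12.32, 12.15 and 13.00 in the sham samples, 15.88 and 15.88 on day 1, and 14.45 and 14.72 on day 7. The groups did not overlap, and sham sample 3 was the highest of the sham samples. Day 1 grafts were 10.5-fold above sham (log2 fold change 3.39 ± 0.26, limma adjusted p = 6.29e-05) and day 7 grafts 4.27-fold above sham (2.09 ± 0.26, limma adjusted p = 0.000857). Day 7 grafts were 2.46-fold below day 1 (-1.30 ± 0.29, limma adjusted p = 0.00850). The 5 probes gave log2 fold changes from 2.79 to 3.39 on day 1 and from 1.71 to 2.18 on day 7 against sham, and from -1.30 to -1.04 between the days, and all 5 were called in each comparison.

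The lower LY96 level on day 7 than on day 1 appeared after normalization and not in the raw signals. Before normalization, the median of A_04_P000316 over arrays was 30792 intensity units on day 1 and 46324 on day 7, in arrays whose 75th percentile was also higher on day 7. Scaled to the 75th percentile of each array, its log2 fold change from day 1 to day 7 was -0.86 (limma adjusted p = 0.0372), which missed the limit on the fold change. Without day 7 sample 1, the value was -1.16, and with all arrays of each graft group averaged to 1 sample it was -1.30, neither of them called. The fit pools the spread of the 3 groups, and averaged graft groups leave only the spread of the sham samples. For A_04_P000316, the standard deviation was 0.45 in sham, 0.004 on day 1 and 0.19 on day 7. With only the 2 graft groups compared, the value was -1.30 ± 0.12 (limma adjusted p = 0.000598). Within the 3 graft scans, which held arrays of the same samples, it was -1.30, -1.29 and -1.30. Among the other probes, A_04_P000317 and A_04_P000319 lost the call between the days without any 1 of the 4 graft samples, A_04_P000318 without 3 of them, and A_04_P000320 without day 7 sample 1 (-1.01, limma adjusted p = 0.0556). With each graft group averaged, the day 7 rise of A_04_P000318 and A_04_P000319 over sham was not called (limma adjusted p = 0.0511 for both). The rise of A_04_P000316 over sham was called on both days under every alternative that was run.

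**Figure D1:**
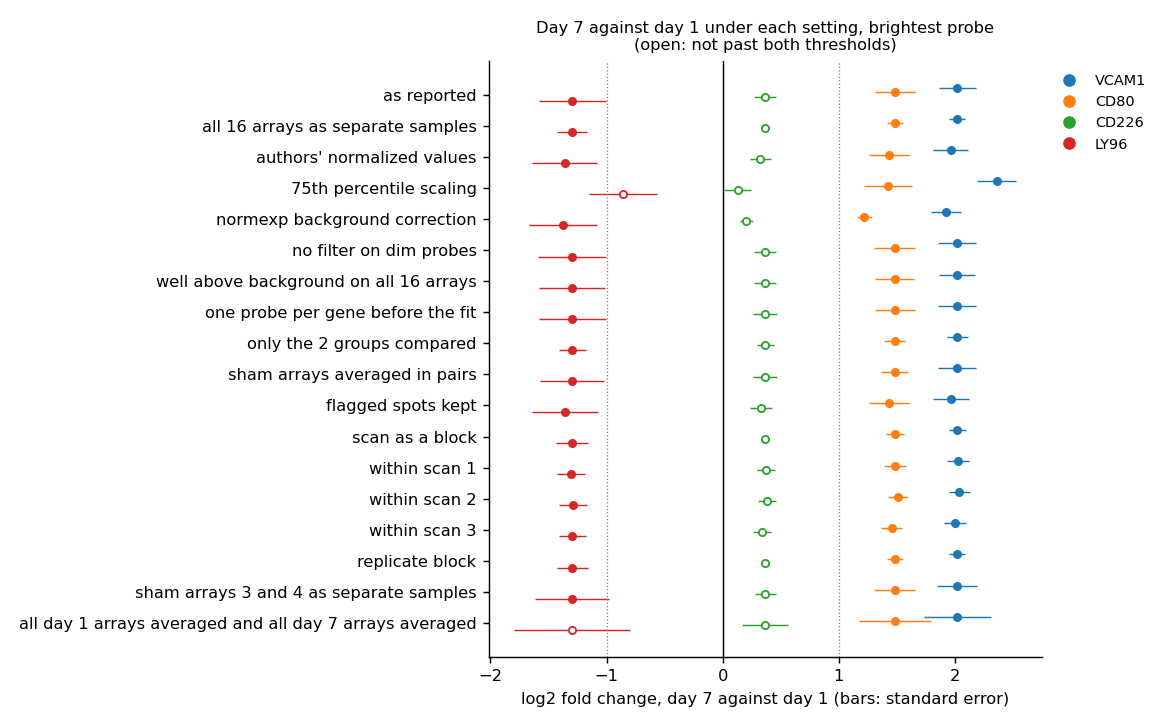
Log2 fold change from day 1 to day 7 (horizontal axis, bars are the standard error of the fit) of the brightest probe of each gene, as reported and under each alternative (vertical axis), with filled symbols past both thresholds and dotted lines at the fold change limit of 1. VCAM1 and CD80 were called and CD226 was not under all settings drawn, while LY96 was not called with 75th percentile scaling or with the arrays of each graft group averaged. Some settings cannot move this fold change, only its standard error and adjusted p.

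**Figure D2:**
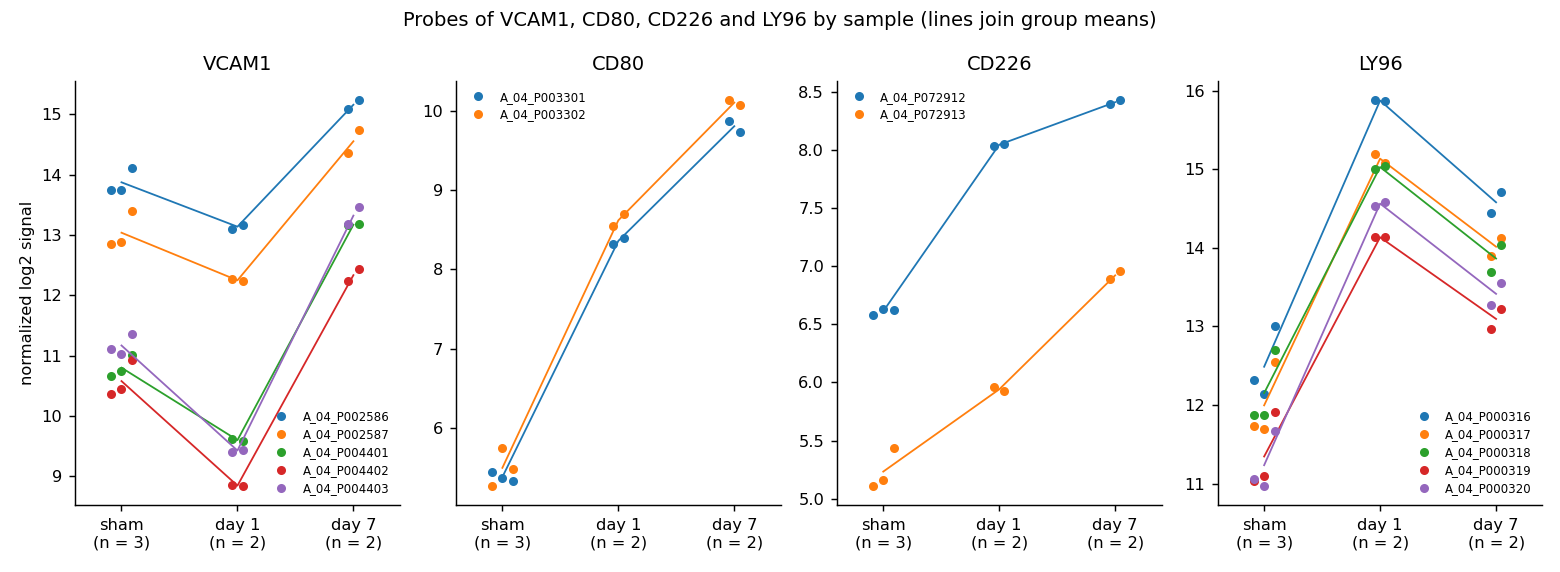
Normalized log2 signal (vertical axis) of each probe of VCAM1, CD80, CD226 and LY96 in the sham, day 1 and day 7 samples (points, 3, 2 and 2 samples), with lines joining the group means of a probe. VCAM1 is lowest on day 1, CD80 and CD226 are lowest in sham and highest on day 7, and LY96 is highest on day 1.

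Over the 14 probes, all 14 were called higher on day 7 than in sham, where 17.5% of all 35762 probes tested were called higher and 15.4% lower. On day 1, 8 of the 14 were called higher than sham and 3 lower, against 25.2% and 24.5% of all probes. From day 1 to day 7, 7 were called higher and 5 lower, against 21.3% and 19.2% of all probes. The median log2 fold change of the 14 probes was 1.91 on day 7 and 2.11 on day 1 against sham and 1.21 between the graft groups, beside 0.04, 0.12 and -0.03 over all probes tested. Probes of one gene are not independent, and VCAM1 and LY96, with 5 probes each, weigh most in these counts and medians. Between the graft groups, the median pools VCAM1 probes, which rose, with LY96 probes, which fell. The samples of the 2 groups did not overlap for any of the 14 probes in the 3 comparisons, which also held for 74.7% of all probes between day 7 and sham, 83.9% between day 1 and sham, and 90% between the graft groups. The comparisons with sham share the sham samples. The study's own pathway lists of changed genes, selected on these samples, hold all 4 genes, so that the counts are not independent evidence of a direction.

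**Figure D3:**
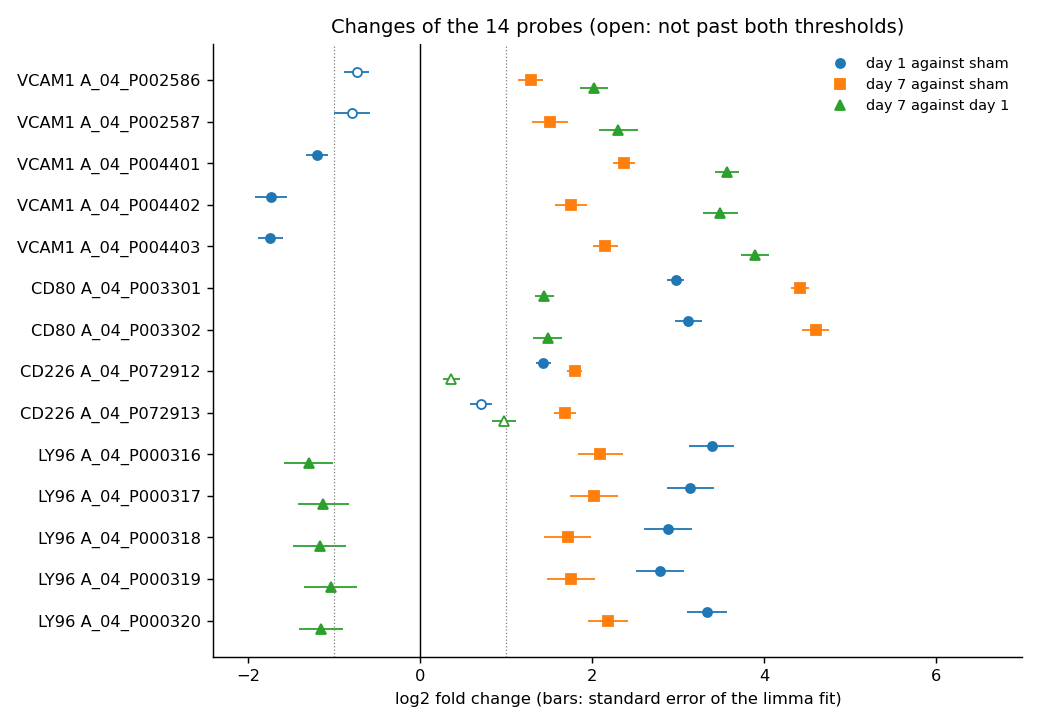
Log2 fold change (horizontal axis, bars are the standard error of the limma fit) of each of the 14 probes (vertical axis) in the comparisons of each graft group with sham and of the graft groups with each other. Filled symbols passed both thresholds, open symbols did not, and dotted lines mark the fold change limit of 1 in each direction. The VCAM1 probes lie left of 0 on day 1 and right of it on day 7, and the LY96 probes lie left of 0 only for day 7 against day 1.

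Read over the 3 comparisons together, the genes had different courses. The 3 VCAM1 probes of the A_04_P0044 series were called lower on day 1, higher on day 7 and higher on day 7 than on day 1, a course that 1.24% of all probes had. The other VCAM1 probes, not called on day 1, shared their course with 3.79% of all probes. Both CD80 probes rose at each step, as did 1.37% of probes. The brighter CD226 probe was called higher on both days with no call between them, as were 6.69% of probes, and the dimmer one was called only for day 7 against sham, as were 2.05%. All 5 LY96 probes were called higher on both days and lower on day 7 than on day 1, as were 2.37% of probes. By size, 1.04% of all probes tested had a larger rise from sham to day 7 than CD80 probe A_04_P003302, and 3.04% had a larger rise from sham to day 1 than LY96 probe A_04_P000316. From day 1 to day 7, 1.40% had a larger rise than A_04_P004403, the VCAM1 probe with the largest step, and 9.21% than the brightest, A_04_P002586. For the brightest CD226 probe, 17.9% had a larger rise from sham on day 1 and 8.63% on day 7.

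**Figure D4:**
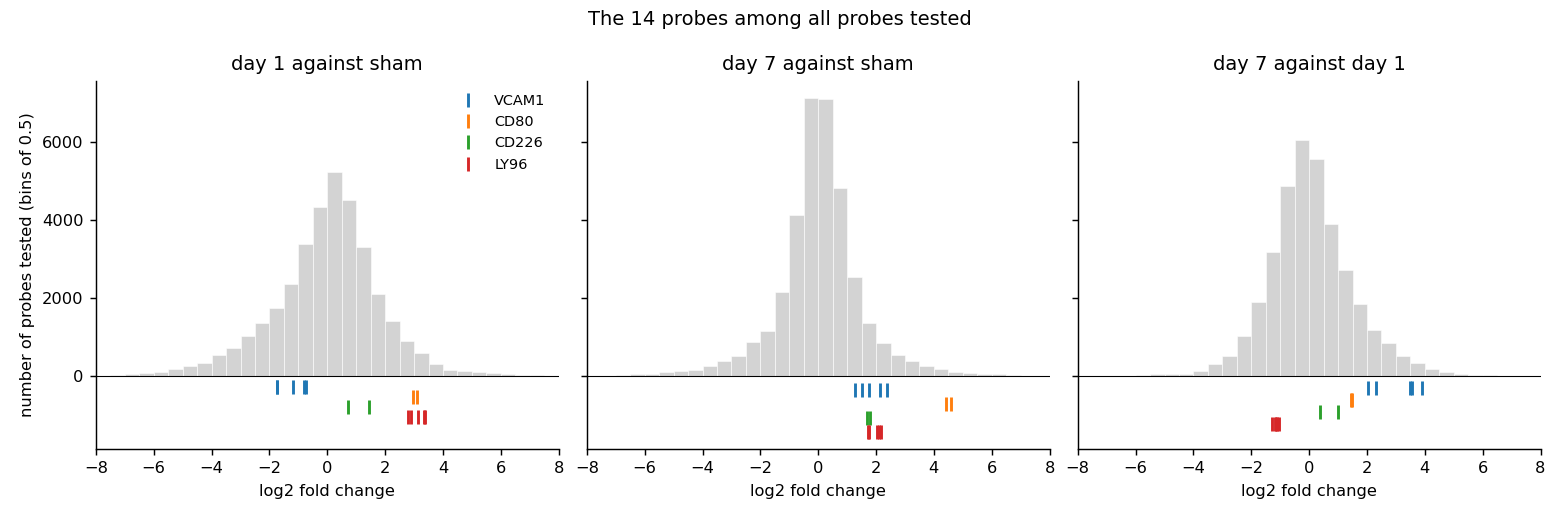
Number of all probes tested (vertical axis, grey bars, bins of 0.5) by log2 fold change (horizontal axis) in the 3 comparisons, with a coloured tick under the axis for each probe of the 4 genes. LY96 and CD80 lie in the upper tail on day 1, CD80 does so on day 7, and the VCAM1 probes of the A_04_P0044 series do so for day 7 against day 1.

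Few genes of the same processes had a named probe: 4 of 31 listed for leukocyte adhesion, 5 of 36 for costimulation and 8 of 34 for the lipopolysaccharide receptor and its signalling, of which 7 were tested. The probe with the highest mean stood for a gene. Among all 19328 genes and unnamed transcripts tested, 17.7% were called higher and 13.7% lower on day 7 than in sham, 28.8% higher and 21.9% lower on day 1 than in sham, and 19.4% higher and 22.5% lower on day 7 than on day 1. The medians of all genes were 0.04, 0.26 and -0.16 for these comparisons.

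Of the adhesion genes, 1 of 4 was called higher on day 7 than in sham, with a median log2 fold change of -0.10 over the list. ICAM5, an adhesion molecule best known from neurons, was called higher on day 7 (1.95 ± 0.30, limma adjusted p = 0.00216) and was not well above background on any day 1 array. On day 1, 1 of 4 was called higher and 1 lower, with a median of -0.07. The higher one was F11R, a junction molecule (1.29, limma adjusted p = 0.00903). The lower one was ICAM5, whose fitted change of -1.88 (limma adjusted p = 0.00169) rests on day 1 signals not well above background. With the dim group set to the lowest signal well above background on each array, ICAM5 was at least 1.11-fold lower. That bound is under the limit on the fold change, so the size of the drop is not known. SELE, the E-selectin of activated endothelium, had log2 fold changes of 0.54 on day 1 (limma adjusted p = 0.00953) and -0.03 on day 7 (limma adjusted p = 0.841), and neither was called. Between the days, ICAM5 was called higher and F11R lower, with a median of -0.03 over the 4 genes. ICAM5 was not called with normexp correction on day 7 (0.46), on day 1 (-0.16) or between the days (0.63), nor on day 1 with 75th percentile scaling (-0.98). SELE was called on day 1 with 75th percentile scaling (1.18), and F11R lost its day 1 call without day 1 sample 1 (1.15, limma adjusted p = 0.0601). ITGB1, an integrin gene, was not called on day 1 (-0.68, limma adjusted p = 0.0056) or day 7 (-0.17, limma adjusted p = 0.349) against sham. F11R, SELE and ITGB1 were named after their values were seen.

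Of the costimulation genes, 2 of 5 were called higher on day 7 than in sham and the list's median was 0.97. CD86, the relative of CD80, took the same order of groups as CD80: it measured 6.12 to 7.07 in sham, 10.59 to 10.60 on day 1 and 12.02 to 12.06 on day 7. Its log2 fold change was 4.10 on day 1 (limma adjusted p = 3.80e-05) and 5.55 on day 7 (limma adjusted p = 2.47e-05) against sham, and 1.45 between them (limma adjusted p = 0.00713). TNFSF4, the ligand of OX40, was not well above background on any sham array. It was at least 3.59-fold higher on day 7, with a fitted change of 1.91 (limma adjusted p = 0.000635). However, it entered the test only through day 7, where it was high, and its fitted change was 0.29 and not called with normexp correction. On day 1, 3 of 5 were called higher. CTLA4, the inhibitory receptor for CD80 and CD86, rose by 1.68 (limma adjusted p = 0.000161, with 1 of the 3 sham samples missing), and CD40LG, a ligand of activated T cells, rose by 1.70 (limma adjusted p = 0.000141). On day 7, CTLA4 at 0.75 and CD40LG at 0.97 missed the limit on the fold change. Other probes of CTLA4 and CD40LG disagreed in part: 4 of 5 and 1 of 2 were called on day 1, and 2 of 5 and 1 of 2 on day 7. Between the days, 2 of 5 were called higher, with a median of -0.28, of which TNFSF4 was lost without day 1 sample 1 (0.97), with 75th percentile scaling (0.13) and with normexp correction (0.23). With each graft group averaged, which leaves only the spread of the sham samples, neither CD86 nor TNFSF4 was called between the days. With normexp correction CD40LG on day 1 was at 0.67 and not called, and with 75th percentile scaling 5 of 5 were called on day 1. CD28, the other receptor of CD80 and CD86, was not called on day 1 (0.42, limma adjusted p = 0.329) or day 7 (0.13, limma adjusted p = 0.769) against sham. TNFSF4, CTLA4, CD40LG and CD28 were named after their values were seen.

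Of the 7 lipopolysaccharide receptor genes tested, 6 were called higher and 1 lower on day 7 than in sham, with a median of 2.22, and 5 were called higher and 1 lower on day 1, with a median of 3.60. TLR4, the receptor that LY96 binds, measured 11.04 to 11.37 in sham, 14.90 to 14.98 on day 1 and 13.35 to 13.45 on day 7. It was called higher on day 1 (3.76 ± 0.13, limma adjusted p = 3.70e-06) and day 7 (2.22 ± 0.13, limma adjusted p = 3.93e-05), and lower on day 7 than on day 1 (-1.54 ± 0.14, limma adjusted p = 0.000221), the order of groups that LY96 had. CD14, which passes lipopolysaccharide to TLR4, rose by 5.74 on day 1 (limma adjusted p = 2.51e-05) and 4.85 on day 7 (limma adjusted p = 9.19e-05), and the difference of -0.89 between the days was not called (limma adjusted p = 0.0879). TLR2, the receptor for bacterial lipoproteins, rose by 4.63 and 4.90, the latter with 1 of the 2 day 7 samples missing. LY86, the partner of CD180 and a relative of LY96, rose by 3.60 and 5.42, and its level was 1.82 higher on day 7 than on day 1 (limma adjusted p = 0.00036), unlike LY96. CD180 itself rose by 2.26 and 1.11, and its change from day 1 to day 7 was -1.15 (limma adjusted p = 0.0291). CHUK, a kinase of the NF-kappa B pathway, rose by 1.03 on day 7 (limma adjusted p = 0.000361), where 3 of its 4 probes were called. It was at 0.98 and not called with the authors' normalized values, with normexp correction and with the outlying spots kept. Between the days, 1 of 7 was called higher and 2 lower, with a median of -0.25. The day 7 call of CD180 was lost without sham sample 2 (1.05), sham sample 3 (0.85), day 7 sample 1 (1.22) or day 7 sample 2 (1.00), and its call between the days without any 1 of the 4 graft samples (-1.26 to -1.04). LBP, the serum protein that carries lipopolysaccharide to CD14, was the 1 lower gene and was not well above background on any graft array. Its fitted changes were -3.60 on day 1 (limma adjusted p = 0.00204) and -3.86 on day 7 (limma adjusted p = 0.00226). Against the mean of the 3 sham samples, it was at least 9.74-fold lower on day 1 and at least 9.48-fold lower on day 7. LBP entered the test only through sham, where it was high, and sham sample 3 carried part of the size: without it the fitted changes were -2.94 and -3.19. With each graft group averaged, its day 7 call was lost (limma adjusted p = 0.0519). It was named after its values were seen.

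**Figure D5:**
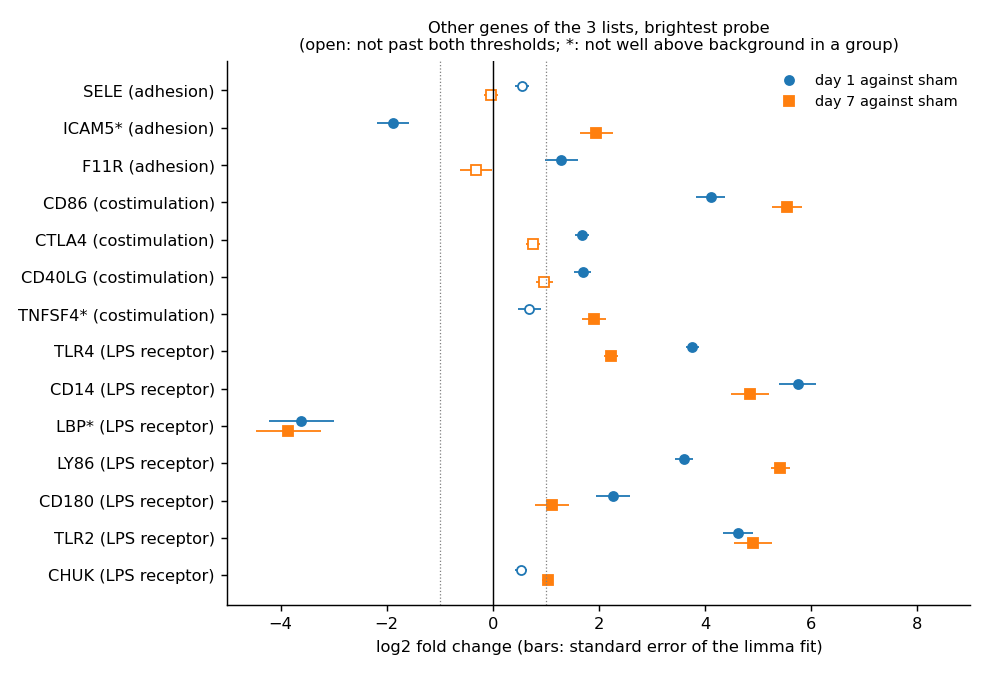
Log2 fold change (horizontal axis, bars are the standard error of the limma fit) of the other genes of the 3 lists that the text names, except CD28 and ITGB1 (vertical axis), for day 1 against sham and day 7 against sham. Filled symbols passed both thresholds, and a star marks genes not well above background in at least 1 group, whose fitted change is not a measured fold. TLR4 and CD180 are higher on day 1 than on day 7, and CD86 and LY86 are higher on day 7.

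Among 1793 named genes well above background on every array, those nearest to the brightest probe of each gene were sought. The measure was the root-mean-square difference of log2 signals centred on their sham mean, over the 7 samples. Nearest to VCAM1 were CLU, the chaperone clusterin (0.16), ATP6V0A2 (0.21) and CDC42SE2 (0.22). Nearest to CD80 were RLA-DMA, a rabbit class II histocompatibility gene (0.25), LGALS4 (0.44) and B4GALT6 (0.44). Nearest to CD226 were ZMPSTE24 (0.06), ETF1 (0.13) and ACTR3 (0.14), and nearest to LY96 were TNNI2 (0.13), HPS3 (0.18) and SGMS1 (0.20). RLA-DMA rose by 3.52 on day 1 and 4.74 on day 7 against sham, beside 3.12 and 4.60 for CD80. TNNI2 rose by 3.52 and 1.99, beside 3.39 and 2.09 for LY96. These genes were picked for closeness over the same samples, so that near values follow from the choice.

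Markers of leukocytes and platelets also differed between the groups, over the few that had a named probe, and not all in the same order of groups. Of the listed markers, 3 of 7 for T cells, 3 of 7 for neutrophils, 2 of 8 for monocytes and macrophages, 1 of 4 for B cells, 1 of 4 for platelets, 1 of 5 for dendritic cells, 1 of 6 for endothelium, 3 of 5 for smooth muscle and 3 of 5 for fibroblasts were named, and none for natural killer cells or for all leukocytes. The summed normalized signal of 3 neutrophil markers (CXCR2, S100A8 and S100A9) ranged from 8929 to 25293 in sham, from 667226 to 690738 on day 1 and from 122353 to 124919 on day 7. S100A8 and S100A9, which made up most of this sum, had the order of groups that LY96 had, while CXCR2 on day 7 was near sham (-0.18, limma adjusted p = 0.293). That of 2 monocyte and macrophage markers (CD14 and MSR1) ranged from 1839 to 3761 in sham, from 137422 to 140865 on day 1 and from 104959 to 114384 on day 7, with CD14 at -0.89 and MSR1 at 0.48 between the days, neither of them called. That of 3 T cell markers (CD3E, CD4 and CD5) ranged from 184 to 199 in sham, from 1208 to 1216 on day 1 and from 469 to 475 on day 7. CD5 made up most of this sum, CD3E was not called on day 1 (0.46) and was higher on day 7 than on day 1 (1.29, limma adjusted p = 0.0012), and CD4 on day 7 was near sham (-0.08). The platelet marker ITGA2B ranged from 179 to 210 in sham, from 3820 to 3824 on day 1 and from 123 to 134 on day 7, and the B cell marker MS4A1 from 28.7 to 49.5, from 172 to 230 and from 53.7 to 54.1. The dendritic cell marker CD1B ranged from 114 to 787 in sham, from 757 to 774 on day 1 and from 1047 to 1122 on day 7, and was not called in any of the 3 comparisons (limma adjusted p from 0.0547 to 0.65).

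Vessel wall markers moved the other way on day 1. The summed signal of 3 smooth muscle markers (ACTA2, MYH11 and DES) ranged from 321094 to 527159 in sham, from 11698 to 12124 on day 1 and from 197852 to 234417 on day 7. This sum was lowest on day 1, as VCAM1 was, but of the 3 markers only ACTA2 was. ACTA2 made up most of this sum, and MYH11 was lower on day 7 than on day 1 (-1.16, limma adjusted p = 0.0427). DES was also lower on day 7 than on day 1, but not called (-1.94, limma adjusted p = 0.0735). That of 3 fibroblast markers (COL1A2, DCN and LUM) ranged from 1.01e+06 to 1.06e+06 in sham, from 139192 to 139415 on day 1 and from 809655 to 832704 on day 7. KDR, the only endothelial marker with a named probe, ranged from 18.9 to 30.8 in sham and was not well above background on any graft array. The part of these shifts in the changes of VCAM1, CD80, CD226 and LY96 was not tested.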

How the data were processed

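RNA from vein tissue was measured on 16 Agilent rabbit arrays, each with 45220 spots. The authors' deposited scanner output gives a signal intensity per spot after background subtraction, with quality calls of 0 or 1 as a score (Feature Extraction 11.0.1.1 in the file headers, 9.1 in the submitters' processing notes, annotation build oryCun2). A further deposited table holds log2 values after the authors' own quantile normalization and filter. These had medians of 8.49 to 8.51 per array and slopes of 0.995 to 1.00 against the scanner values normalized here, so that they are on a log2 scale and not centred by gene.

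Control spots were removed, spots called non-uniform or outlying were set to missing, log2 signals were quantile-normalized, and repeated spots averaged by probe. Arrays of a group were averaged when their squared log2 difference, divided by the variance between spots of one probe at that brightness, had a mean of 1 or less. The ratio was 0.057 to 0.18 within the graft sets, 0.71 for sham arrays 3 and 4 and at least 1.06 for all other pairs. By the ratio of mean variances, pairs of arrays from different sets of a graft group were at 0.63 to 1.01, so that averaging all arrays of a graft group was added as an alternative after seeing the data, as was keeping sham arrays 3 and 4 apart. The plan had 4 sham samples, and the rule left 3.

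A probe was tested if all arrays of some group had it well above background (35762 probes). One limma 3.58.1 model of 3 groups was fitted in R 4.3.3 with the package data.table (version 1.17.8). A call needed a two-sided Benjamini-Hochberg adjusted p over all probes below 0.05 and a log2 fold change of 1 or more in size. The number of samples, 3 for sham and 2 for each graft group, limits the precision.

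Probes were named by RefSeq accession (3368 probes) or by the gene identifier that the study's supplement gives for their transcript (2816 probes), using mOryCun1.1 for names only. No coordinates or sequences are given. The 4 genes and the lists were chosen with earlier results of these data known. One adhesion gene is not reported here and was left out of its list. The text names, of each list, up to 6 called genes with the largest change on day 7 and a signal above background on all arrays compared, and the 3 genes nearest to each of the 4. The limma fit alone was tested on simulated data with independent normal values, and not the normalization, the averaging of arrays or the naming of probes. Figures used Python 3.11.15, matplotlib 3.10.9 and pandas 2.3.3.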

Additional observations from a re-analysis of the deposited data

Results flagged for a closer look

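For 12 of the 14 probes, the change from sham on day 7 differed from that on day 1 by the limma test of day 7 against day 1 and by a log2 fold change of at least 1, where 21.3% of all probes tested were called higher and 19.2% lower. The 2 CD226 probes passed the limit on the adjusted p and not that on the fold change. The difference, day 7 minus day 1, was 2.02, 2.30, 3.57, 3.49 and 3.89 on the log2 scale for VCAM1 probes A_04_P002586, A_04_P002587, A_04_P004401, A_04_P004402 and A_04_P004403, whose change turned from below sham to above it. It was 1.44 and 1.48 for CD80 probes A_04_P003301 and A_04_P003302. It was -1.30, -1.12, -1.17, -1.04 and -1.15 for LY96 probes A_04_P000316 to A_04_P000320.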

How the results depend on the processing

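VCAM1, CD80, CD226 and LY96, by their brightest probes, kept their direction in all 3 comparisons under all alternatives: 16 separate arrays, the authors' normalized values, 75th percentile scaling, normexp correction, other filters on dim or outlying spots, one probe per gene, the compared groups only, averaged sham pairs, scan or replicate blocks, within-scan values, each sample left out, and the added choices of samples. Not all of these could have changed a direction. Other filters on dim probes, one probe per gene and the compared groups only cannot move a fold change, only its standard error and adjusted p. Between the days, neither can 16 separate arrays, averaged sham pairs, scan or replicate blocks, left-out sham samples or the added choices of samples. Calls were lost for LY96 between day 1 and day 7 with 75th percentile scaling (-0.86), with each graft group averaged (-1.30) and without day 7 sample 1 (-1.16, the smallest over the left-out samples, which reached -1.43), and for CD226 on day 1 against sham with normexp (0.92). The cause was not tested.

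The count of all probes called for day 7 against sham, day 1 against sham, and between the days was 11780, 17794 and 14482. It was 6933, 10470 and 7367 with normexp, and 6058, 9800 and 8126 with one probe per gene, where fewer features were tested and a count over the 14 probes cannot be given. With each graft group averaged, 12 of the 14 probes were called for day 7 against sham. Between the days, 12 of the 14 were called as reported, 7 with each graft group averaged, and 9, 9, 8 and 10 without day 1 sample 1, day 1 sample 2, day 7 sample 1 and day 7 sample 2. With 75th percentile scaling, the share of higher among called probes went from 50.7% to 63.7% on day 1 against sham and from 52.5% to 34.0% between the days, and the median of all probes from 0.12 to 0.47 and from -0.03 to -0.35, beside which VCAM1 on day 1 was at -0.42.

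Values that turned sign were not called: CD14 between the days (0.013 with 75th percentile scaling), ACTR3 between the days (-0.23 with that scaling, -0.26 with normexp, -0.025 to 0.10 over the left-out samples) and SELE on day 7 against sham (-0.17 to 0.10 over the left-out samples).

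Same-numbered arrays of different groups did not deviate together (correlations from -0.02 to 0.05), so that the numbers gave no sign of pairing. Samples of a graft group differed little beyond the spread between spots, so that these correlations cannot exclude pairing. With a replicate block over 16 arrays, the step from day 1 to day 7 was 2.02 for VCAM1, 1.48 for CD80, 0.37 for CD226 and -1.30 for LY96, and 12 of the 14 probes were called. The block cannot move this step, since both graft groups hold the same replicate numbers. These calls took the 16 arrays as separate samples, although some are copies by the rule used for the main fit.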
